A study of Mus musculus with 2 samples.

Results

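Cycling T cells were examined within 2 single-cell RNA sequencing libraries of mouse regulatory T cells (Treg cells), the lineage of T cells that holds immune responses in check. Members were chosen by the measured counts of 6 genes: a cell counted as cycling when it held at least 1 unique molecular identifier (UMI, 1 tagged transcript molecule) of at least 3 of the cell division genes Pclaf, Birc5, Mki67, Top2a, Rrm2 and Cdca8. These cells are called members below, and the 6 genes rule genes. Only cells with 500 or more genes detected were kept, and at most 20% of their UMIs could come from the mitochondrial genome (mt- genes). The rule found 561 members among 12217 kept Mito-high cells, 4.59% (4.23 to 4.98), and 38 members among 11679 kept Mito-low cells, 0.325% (0.23 to 0.446). Brackets after a value give its exact 95% interval, which covers counting error only.

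The Mito-high and Mito-low libraries held Treg cells stained with MitoTracker, a dye that gathers in mitochondria, and sorted by flow cytometry for high or low dye signal. Both were made with the 5′ kit of 10x Genomics, and no further treatment or genotype is named in the labels. The sources used here do not give the mice's strain, age or tissue. There was 1 library per sort gate, so members of 1 library are not replicates, the gate and the library cannot be told apart, and no test or p-value was computed.

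A T cell that divides first copies its DNA in S phase and then separates the copies in mitosis. Origins are licensed by the MCM helicase, forks are copied by DNA polymerases with the PCNA clamp, and newly made histones pack the copies. Mitosis is driven by cyclins A2 and B with the kinase Cdk1, while kinetochores and the spindle pull the chromosomes apart. Resting Treg cells recirculate through lymph nodes with the receptor Ccr7 under transcription factors such as Klf2, whereas effector Treg cells carry suppressive molecules such as interleukin 10 and receptors that lead to inflamed tissue.

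The Mito-high library held 89996794 UMIs in 12352 barcodes and the Mito-low library 60688904 in 11901. The labels give 12000 sorted cells per library, fewer than the barcodes of Mito-high and more than those of Mito-low. Mito-high members had a median of 16569 UMIs per cell, from 4513 to 54911, against 5985 in the other kept cells. Mito-low members had a median of 10631.5 UMIs against 4665. Detection of a rule gene grows with depth, so the share of members was also taken after each cell had been thinned at random to 2000 UMIs. It was then 1.9% (1.66 to 2.16) in Mito-high and 0.0894% (0.0429 to 0.164) in Mito-low. Among kept cells of at least 8000 UMIs, 15.5% (14.3 to 16.7) and 2.09% (1.37 to 3.05) were members. The Mito-high share was thus above the Mito-low share, with intervals that did not meet, in each of the 3 ways of counting. The mt share was 3.24% in Mito-high members and 3.33% in the other cells, as medians.

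Members carried T cell transcripts at the level of the other kept cells. The 10 T cell markers summed to 6134 CPM in members and 6520.4 CPM in other cells in Mito-high, where CPM is UMIs of a gene per 1000000 UMIs after thinning, and 0 of the 10 differed by 1.5-fold. A UMI of Ctla4 was found in 75.4% of thinned Mito-high members and 76% of other cells, and one of Ikzf2 in 77.4% and 69.6%. Both genes mark Treg cells, and both were in 19% of 21 thinned B cell-like cells, which should lack them. These B cell-like cells, 22 in Mito-high before thinning with a median of 3134.5 UMIs, held at least 3 of 6 B cell markers, and 2 of them were members. Foxp3, the transcription factor that defines the lineage, was sparse: 21.2% of Mito-high members and 15.7% of other cells had a UMI before thinning, and 0 of the 22 B cell-like cells did, which allows up to 13.6%. After thinning the order was reversed, with a Foxp3 UMI in 3.57% (2.19 to 5.45) of Mito-high members and 5.25% (4.85 to 5.68) of other cells, and the intervals overlapped. Markers of CD8 T cells and B cells were mixed. The CD8 list summed to 50.8 CPM in members and 32.9 CPM in other cells, with Cd8a and 1 other of its 5 genes at 0 UMIs in members; Runx3, its 1 gene at 20 CPM or more, was at 37.4 CPM (27 to 50.6) against 22.7 CPM (20.8 to 24.8). A UMI of Cd8b1, the beta chain of the CD8 coreceptor, was in 1.96% of thinned members and 1.73% of other cells, and before thinning in 15% and 5.32%. Cd79a and Cd79b, the signalling chains of the B cell receptor, differed in direction: a UMI was in 0.178% and 0.373% for Cd79a, and in 4.46% and 1.88% for Cd79b, whose level was 23.2 CPM (15.1 to 34) in members against 10.4 CPM (9.14 to 11.8). The part of CD8 T or B cells in the values of members was not tested. Of the 9 B cell markers 2 were at 0 in Mito-high members, as were 8 of 11 myeloid, 6 of 7 erythroid and platelet, and 5 of 9 gamma delta T and NK cell markers. The B cell list summed to 109 CPM in Mito-high members and 109.8 CPM in the other cells, and the myeloid list to 95.4 and 79.6 CPM.

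Signs of 2 cells under 1 barcode were read from T cell receptor beta V segments. At least 2 segments were seen in 6.06% (4.23 to 8.37) of Mito-high members and in 7.01% (5.45 to 8.85) of other cells of at least 12000 UMIs. In Mito-low it was 1 of 38 members. Of Mito-high members 168 (29.9%) held over 20000 UMIs, against 96 (0.824%) of the other cells. Among the 210 Mito-high members with exactly 1 segment, 22 segments were seen, and the most frequent, Trbv12-2, made up 16.2% (11.5 to 21.9) against 14.5% of the other cells with 1 segment. Kept cells of the libraries shared 35 barcodes; no member of one library shared its barcode with a member of the other.

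The values that chose the members are a description. In Mito-high, 91.8% (89.2 to 93.9) of members had a UMI of Pclaf, a PCNA-binding protein, and 86.6% (83.5 to 89.3) one of Birc5, the survivin subunit of the chromosomal passenger complex. Mki67, which coats mitotic chromosomes, was in 82% (78.6 to 85.1), and Cdca8, another passenger subunit, in 80.6% (77 to 83.8). Top2a, which untangles DNA, was in 76.3% (72.6 to 79.8), and Rrm2, a subunit of ribonucleotide reductase, in 69.2% (65.2 to 73). Mito-high cells with 6, 5, 4 and 3 rule genes numbered 243, 113, 91 and 114, and 254 cells just outside the rule held 2. In Mito-low 2, 7, 9 and 20 members held 6, 5, 4 and 3 rule genes, so the number fell with each further gene, and 141 cells held 2. The members just inside, with 3 rule genes, had a median of 13258.5 UMIs in Mito-high, and the cells just outside, with 2, had 11402.5.

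**Figure D1:**
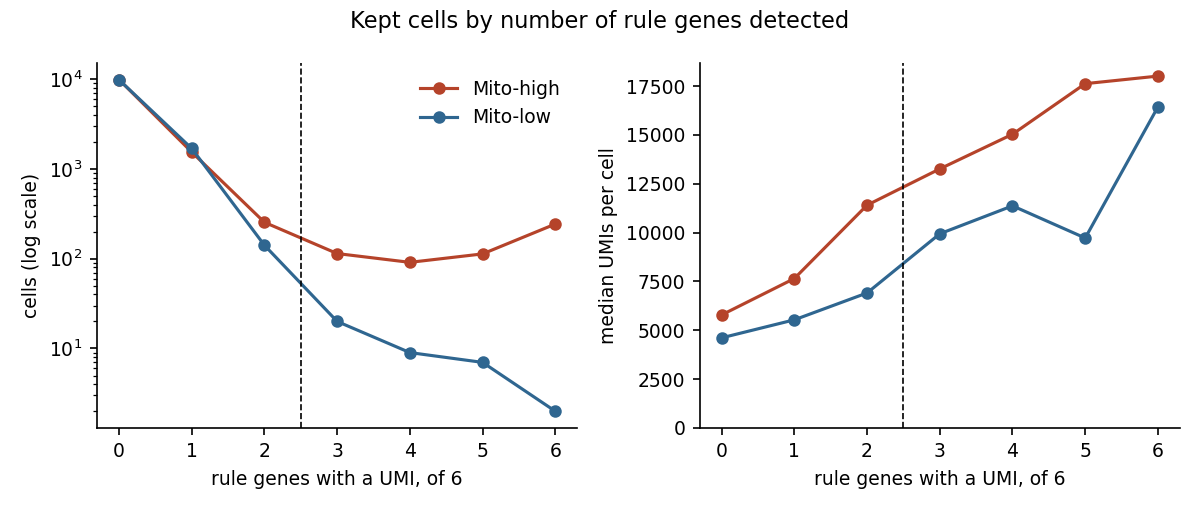
Number of kept cells (left, log scale) and their median UMIs per cell (right) by how many of the 6 rule genes had a UMI, for the Mito-high and Mito-low libraries; members lie right of the dashed line. In Mito-high 243 cells hold all 6 rule genes, more than hold 5, 4 or 3, while in Mito-low only 2 do, and the median depth is higher in members.

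For all further values, members and other kept cells of the same library were set side by side after thinning each cell to 2000 UMIs, and UMIs were summed. The 561 Mito-high members gave 1122000 UMIs and 11517 other cells 23034000. A log2 ratio has 1 UMI added to each sum. Of 5904 genes other than the rule genes at 20 CPM or more in either sum, 1368 (23.2%) were at least 1.5-fold higher in members and 773 (13.1%) at least 1.5-fold lower, with a median log2 ratio of 0.10. With the median ratio of tested genes set to 0 the counts were 1095 and 1006, and with edgeR's TMM scaling, which lowered all log2 ratios by 0.14, 1019 and 1118. Of the tested genes 708 were under 20 CPM in other cells and passed the floor only through members. Their level thus had to be above that of other cells, though not by 1.5-fold. Of the 5196 at 20 CPM or more in other cells, 815 (15.7%) were higher and 773 (14.9%) lower. These shares are the background for the list counts that follow, in which higher and lower mean by at least 1.5-fold. Lists of cell division genes are given by the summed CPM of all their genes, whatever their level, and gene counts are of genes at 20 CPM or more in other cells unless stated.

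Genes of DNA replication were higher in members. The origin licensing list summed to 1389 CPM in members and 208 CPM in other cells, and the replication fork list to 2453 CPM in members and 492 CPM in other cells. Most of their tested genes, 9 of 14 and 18 of 23, passed the floor only through members; of those that passed it in other cells, 5 of 5 and 5 of 5 were higher, with median log2 ratios of 2.51 and 1.63. Mcm10, which helps to start the replicative helicase, had 27 UMIs and 24.1 CPM (15.9 to 35) in members and 4 UMIs and 0.174 CPM (0.0473 to 0.445) in other cells. Uhrf1, which guides DNA methylation onto copied strands, had 118 UMIs and 105 CPM (87.1 to 126) against 80 UMIs and 3.47 CPM (2.75 to 4.32). Their log2 ratios were 6.85 (5.59 to 9.09) and 4.91 (4.50 to 5.35). The fork checkpoint mediator Clspn, the DNA ligase Lig1 and the primase subunit Prim1 had ratios of 5.69, 3.86 and 3.73. The nucleotide supply list summed to 2139 CPM in members and 657 CPM in other cells, and 8 of 8 of its genes were higher, with a median of 1.05. The thymidine enzymes Tk1 and Tyms reached 4.81 (4.34 to 5.28) and 4.32 (4.03 to 4.60), while the purine synthesis gene Gart was at 0.73.

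Histone genes that are switched on with DNA synthesis summed to 1483 CPM in members and 154 CPM in other cells over a list of 35. Of the 15 at 20 CPM or more in either sum, 13 passed only through members, and both of the others were higher. Hist1h1b, a linker histone, had 366 UMIs and 326 CPM (294 to 361) in members against 91 UMIs and 3.95 CPM (3.18 to 4.85). Hist1h2af had 24 UMIs in members and 0 in the other cells, and Hist1h3c had 65 against 8. With 3 UMIs in place of the 0, Hist1h2af was 164-fold higher, leaving out the counting error of its 24 UMIs. The libraries were made from polyadenylated RNA, per the labels, and most transcripts of these genes lack a poly(A) tail, so their levels show only the captured part. After thinning, 386 members (68.8%, 64.8 to 72.6) had a UMI of the list, and 24.8% (24.1 to 25.6) of other cells. Related histone genes are near-identical in sequence, so the levels of single copies are uncertain. The chromatin list of dividing cells summed to 12666 CPM in members and 3114 CPM in other cells, and 12 of 12 genes were higher; the DNA-bending protein Hmgb2 had 3565 CPM (3455 to 3677) against 439 CPM (430.3 to 447), and the histone chaperone Asf1b 108 CPM (89.5 to 129) against 4.34 CPM (3.53 to 5.28).

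Genes of mitosis were also higher in members. Mitotic kinases and cyclins summed to 1499 CPM in members and 152 CPM in other cells, the kinetochore, condensin and cohesion list to 2242 CPM in members and 608 CPM in other cells, and the spindle and cytokinesis list to 4308 CPM in members and 652 CPM in other cells. Few of these genes reached 20 CPM in other cells, where 1 of 1, 2 of 3 and 6 of 7 were higher and 0 lower; 14, 21 and 17 genes passed the floor only through members. Cyclin A2 (Ccna2) had 105 UMIs and 93.6 CPM (76.5 to 113) in members and 8 UMIs and 0.347 CPM (0.15 to 0.684) in other cells. Cdk1, the kinase it activates, had 117 UMIs and 104 CPM (86.2 to 125) against 27 UMIs and 1.17 CPM (0.772 to 1.71). The log2 ratios were 7.92 (7.04 to 9.32) and 6.43 (5.86 to 7.14). Esco2, which joins sister chromatids, had 43 UMIs against 3, and Hmmr, a spindle protein, 74 against 6, each among the 15 highest ratios. Others of these 15 were the spindle factor Tpx2 (6.94), the checkpoint kinase Bub1 (6.91), the kinetochore proteins Nuf2 (6.68) and Ska1 (6.46), and Aurkb (6.39), the kinase of the passenger complex. The list of ubiquitin control of mitosis summed to 1077 CPM in members and 400.2 CPM in other cells, and 3 of 4 genes were higher. Of its genes that passed only through members, Cdc20 was at 4.86, which directs the anaphase-promoting complex, and its inhibitor Fbxo5 at 4.77. Rule genes are left out of these lists, but such genes are known to be made together with them, so the ratios describe the cells the rule selects.

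Most thinned members held transcripts of both parts of the cycle. In Mito-high 530 of 561 (94.5%, 92.2 to 96.2) had UMIs of replication and of mitosis genes, 7 of replication only and 24 of mitosis only. Each kind had a median of 10 UMIs per member, with quartiles of 4 and 16 for replication and 6 and 16 for mitosis. In other cells the medians were 1 and 1, and 61.4% had both, so a UMI of both kinds at this depth does not set members apart and no phase was assigned to single cells.

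Promoters of the 30 genes with the highest Mito-high ratio were searched for motifs that the textbook ties to cell cycle genes, in the 250 bases before the start (RefSeq windows, GRCm38.p6). RefSeq windows matched 19 of these 30 genes. The letters CCAAT, on either strand, were in 15 of 19 (78.9%) of their windows, in 11120 of 32851 (33.8%) of all windows of this length and in 2109 of 6069 (34.8%) of windows of the tested genes. The cell cycle homology letters TTTGAA or TTTAAA were in 6 of 19 (31.6%), 8268 of 32851 (25.2%) and 1068 of 6069 (17.6%). The E2F type letters GCGGGAA were in 2 of 19 (10.5%), 1254 of 32851 (3.82%) and 468 of 6069 (7.71%). No search motif contains another. The lists differed: GCGGGAA was in 4 of 13 (30.8%) windows of origin licensing genes and 0 of 26 (0%) of spindle genes, whereas TTTGAA or TTTAAA was in 4 of 13 (30.8%) and 12 of 26 (46.2%). Other lists lay between these 2 for GCGGGAA. It was in 6 of 23 (26.1%) replication fork windows, 1 of 19 (5.26%) of nucleotide supply and 3 of 23 (13%) of the kinetochore list. A match describes letters in the window and is not a site. The 100 bases before the start of 4 of these genes show the motifs in capitals, 5′ to 3′ along the gene: Cdk1 at chr10:69352913-69353012, minus strand, Ccnb1 (cyclin B1) at chr13:100786487-100786586, minus strand, Bub1 at chr2:127831860-127831959, minus strand and Hmmr at chr11:40733438-40733537, minus strand.
Cdk1: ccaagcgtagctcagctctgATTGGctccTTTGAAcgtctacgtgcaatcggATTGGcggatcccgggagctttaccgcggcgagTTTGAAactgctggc
Ccnb1: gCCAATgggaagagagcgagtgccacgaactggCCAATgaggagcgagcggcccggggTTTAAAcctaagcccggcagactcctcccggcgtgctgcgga
Bub1: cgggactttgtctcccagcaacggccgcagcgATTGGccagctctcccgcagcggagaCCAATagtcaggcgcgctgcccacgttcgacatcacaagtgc
Hmmr: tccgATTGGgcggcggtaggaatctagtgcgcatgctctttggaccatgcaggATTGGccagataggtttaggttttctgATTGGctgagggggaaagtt
In these stretches Cdk1 and Ccnb1 hold CCAAT and homology letters, whereas Bub1 and Hmmr hold CCAAT letters alone. Not all matched genes hold such letters there. The same stretches of Nuf2, Nusap1, Mxd3 and Neil3 hold none of the searched letters, and that of E2f8 holds homology letters alone.

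Genes that decide on entry into the cycle were split. Of the list of G1 cyclins and E2F factors 3 of 9 genes were higher and 2 lower, and 9 more, all higher, passed the floor only through members. E2f8 and E2f7, which repress E2F targets late in S phase, had log2 ratios of 6.6 (5.50 to 8.32) and 6.20 (5.03 to 7.94), E2f1 3.82 (3.21 to 4.39) and cyclin E1 (Ccne1) 3.87 (3.14 to 4.55). The 2 lower genes were the D cyclins Ccnd3, at 135 CPM (115 to 159) in members and 303 CPM (295 to 309.7) in other cells, and Ccnd2, at 126 CPM (106 to 148) against 217 CPM (211 to 223). Of the inhibitors and arrest genes 5 of 9 were lower and 0 higher. Lower were the antiproliferative genes Tob1, Btg2 and Btg1 at -1.57, -1.39 and -1.32, the kinase inhibitor Cdkn1b (p27) at -1.27, and Klf4 at -1.05. The inhibitors that passed the floor only through members were Cdkn2c (p18), at 34.8 CPM (24.7 to 47.5) against 7.64 CPM (6.55 to 8.86), and Cdkn1a (p21), at 21.4 CPM (13.7 to 31.8) against 11.2 CPM (9.92 to 12.7).

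Metabolic genes were partly higher. Of the glycolysis list 7 of 12 tested genes were higher and 0 lower, with a median of 0.79; triosephosphate isomerase Tpi1 had 109 CPM (90.3 to 129.8) in members and 27.4 CPM (25.3 to 29.6) in other cells, while the glucose transporters Slc2a1 and Slc2a3 were at -0.46 and -0.47. Of nuclear genes of the respiratory chain 20 of 35 were higher and 0 lower, with a median of 0.63, Cox5a at 555 CPM (513 to 601) against 256 CPM (249 to 262). The 13 mt-encoded genes of the same chain had a median of -0.02, and 0 differed by 1.5-fold, with mt-Co1 at 4535 CPM (4411 to 4661) against 5461 CPM (5431 to 5491). Before thinning a Mito-high member held a median of 543 mt UMIs and another cell 202, in step with their total UMIs. Of MYC targets and ribosome biogenesis 5 of 22 were higher and 1 lower, with a median of 0.39; over all tested genes it was 6 of 26, a share like that of the background. Myc itself was at 31.2 CPM (21.7 to 43.4) against 43.4 CPM (40.7 to 46.1).

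**Figure D2:**
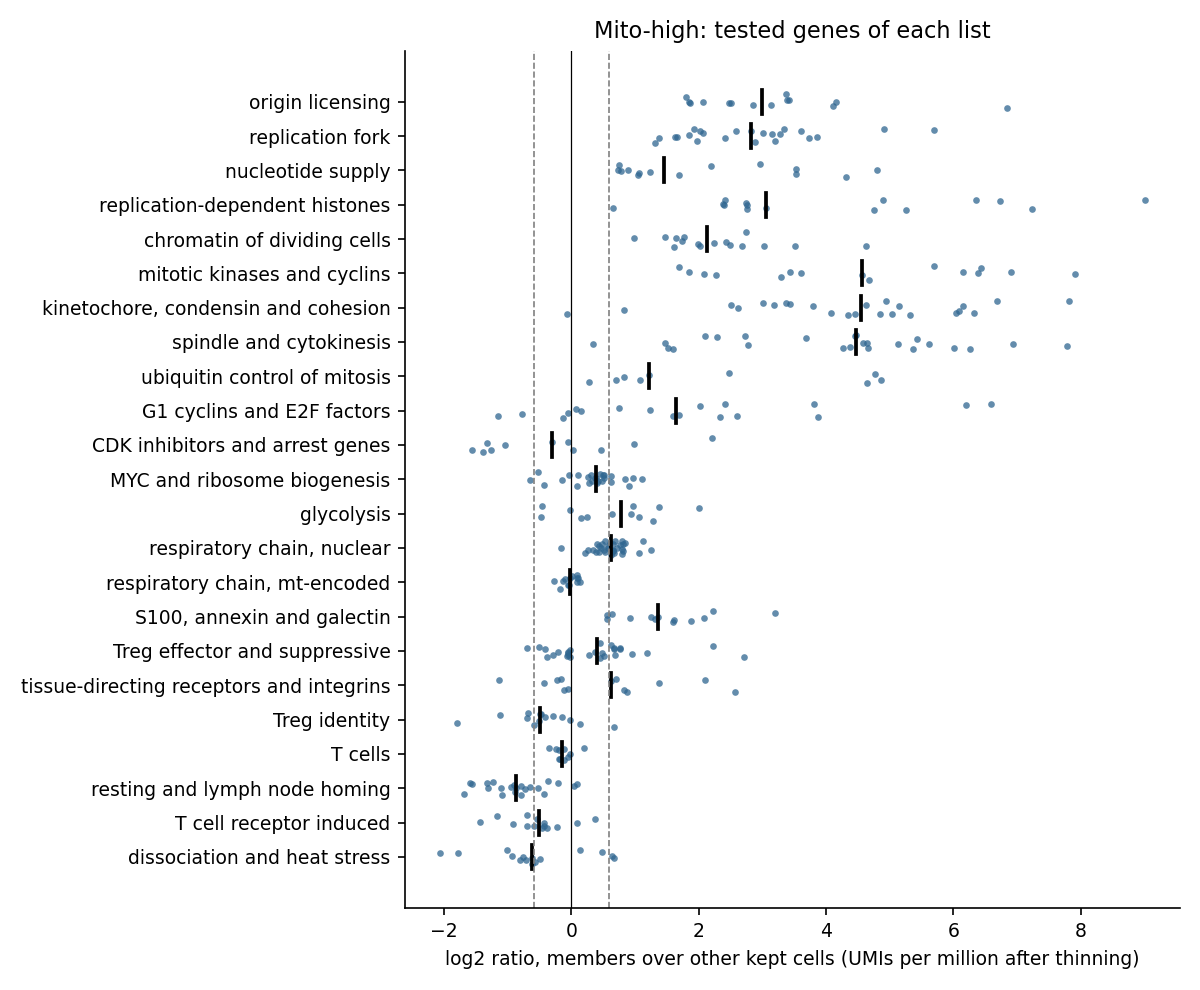
Log2 ratio of members over other kept cells in Mito-high for each tested gene (points) of 23 gene lists, with the list median (black bar) and 1.5-fold limits (dashed lines). Replication and mitosis lists lie to the right, where most points are genes under 20 CPM in other cells, with medians from 1.22 to 4.56, the S100 list has a median of 1.37, and the resting list lies to the left with a median of -0.88.

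Genes of resting, recirculating T cells were lower in members. Of 22 tested genes of that list 16 were lower and 0 higher, with a median log2 ratio of -0.88, where 13.1% of all tested genes were lower. Bcl2, a survival factor, had 145 UMIs and 129 CPM (109 to 152) in members and 9688 UMIs and 421 CPM (412 to 429) in other cells. Satb1, a chromatin organiser, had 219 CPM (193 to 248) against 647 CPM (637 to 658), and Klf2 551 CPM (508 to 596) against 1379 CPM (1364 to 1394). Ly6c1 was at 15.2 CPM (8.83 to 24.3) against 48.3 CPM (45.5 to 51.2), and Igfbp4 at 35.7 CPM (25.5 to 48.5) against 90.7 CPM (86.9 to 94.7). Ccr7, the lymph node homing receptor, was less far apart at 279 CPM (249 to 312) against 486 CPM (477 to 495). The intervals of members and other cells did not meet for any of these 6 genes. The egress receptor S1pr1 (-0.52) and Tcf7 (-0.21) were within 1.5-fold. Resting transcripts were reduced but not absent: 35.7% of thinned members had a UMI of Ccr7, against 50.8% of other cells and 61.9% of B cell-like cells, which also make it. Among kept cells of at least 8000 UMIs the list median was -0.57.

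Effector genes were mixed. Of the effector and suppressive list 7 of 24 genes were higher and 1 lower, with a median of 0.13; 4 more passed the floor only through members, among them Gzmb and Il10, and with them the median was 0.40. Gzmb, the killer protease granzyme B, had 29 UMIs and 25.8 CPM (17.3 to 37.1) in members and 93 UMIs and 4.04 CPM (3.26 to 4.95) in other cells. Il10 had 32 UMIs and 28.5 CPM (19.5 to 40.3) against 296 UMIs and 12.9 CPM (11.4 to 14.4). Both were seen in few cells, a Gzmb UMI in 3.39% of thinned members and 0.521% of other cells, and an Il10 UMI in 3.74% and 1.69%, with 0 of 21 B cell-like cells for each. The costimulatory receptor Icos was at 234 CPM (206 to 264) against 148 CPM (143 to 153), and Batf, a factor of effector differentiation, at 141 CPM (119.7 to 165) against 73.4 CPM (69.9 to 77). Ctla4 (-0.28) and Tnfrsf18 (-0.52) were within 1.5-fold, and Tnfrsf4 (OX40), at 291 CPM (261 to 325) against 474 CPM (466 to 483), was the one lower gene. The sign of the list median changed with the cells and genes used: among kept cells of at least 8000 UMIs it was -0.10, and over genes at 200 CPM or more -0.15.

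Tissue-directing receptors and integrins were mixed, and each chemokine receptor named here was in a minority of cells. Of this list 3 of 9 genes were higher and 1 lower. Another 4, Ccr10, Cxcr3 and Ccr2 among them, passed the floor only through members, so that their level had to be above that of other cells. Ccr10, a receptor for skin chemokines, had 31 UMIs and 27.6 CPM (18.8 to 39.2) in members and 110 UMIs and 4.78 CPM (3.92 to 5.76) in other cells. Cxcr3, of type 1 inflammation, had 54 UMIs and 48.1 CPM (36.2 to 62.8) against 262 UMIs and 11.4 CPM (10 to 12.8), and Ccr2 46 UMIs and 41 CPM (30 to 54.7) against 372 UMIs and 16.1 CPM (14.6 to 17.9). A Cxcr3 UMI was in 7.66% of thinned members and 1.9% of other cells. Itgb8, an integrin subunit that releases active TGF-beta, was lower, at 10.7 CPM (5.53 to 18.7) against 25.4 CPM (23.4 to 27.6). Over genes at 20 CPM or more in other cells, which leaves out Ccr10, Cxcr3 and Ccr2 but not Itgb8, the list median was -0.12, against 0.62 over all tested genes.

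The list of S100 proteins, annexins and galectins, calcium-binding, membrane-binding and sugar-binding proteins found in activated and tissue T cells, had 10 of 12 genes higher and 0 lower, with a median of 1.34; Lgals3 passed the floor only through members. Lgals3 (galectin 3) had 152 UMIs and 135 CPM (115 to 159) in members and 341 UMIs and 14.8 CPM (13.3 to 16.5) in other cells. Lgals1 (galectin 1) had 1934 UMIs and 1724 CPM (1648 to 1802) against 8540 UMIs and 371 CPM (363 to 379), and Anxa2 (annexin A2) 222 CPM (195 to 251) against 52.4 CPM (49.5 to 55.5). S100a6 was at 1098 CPM (1038 to 1161) against 299 CPM (292 to 306), and S100a4 at 843 CPM (790.3 to 899) against 279 CPM (272 to 286). An Lgals1 UMI was in 76.3% of thinned members, 34.3% of other cells and 9.52% of B cell-like cells. Lgals1 belongs to the effector list as well, so the effector values per cell below are also given without it and Srgn.

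Treg identity genes were mostly at or below the level of other cells. Of 14 tested genes 1 was higher and 5 lower, with a median of -0.49. Foxp3 had 21 UMIs and 18.7 CPM (11.6 to 28.6) in members and 636 UMIs and 27.6 CPM (25.5 to 29.8) in other cells, and the interval of its ratio, -0.50 (-1.26 to 0.06), included 0. Il2ra, the receptor chain CD25 for interleukin 2, was at 99.8 CPM (82.2 to 120.1) against 218 CPM (212 to 224). The receptor Gpr83 had 12 UMIs and 10.7 CPM (5.53 to 18.7) against 927 UMIs and 40.2 CPM (37.7 to 42.9), and Izumo1r (folate receptor 4) 271 CPM (241 to 303) against 435 CPM (426 to 444). Ikzf2 (Helios) was at 1344 CPM (1277 to 1414) against 1224 CPM (1209.9 to 1239), a log2 ratio of 0.14, and Capg was the higher gene at 0.67. The lower genes thus included CD25 and folate receptor 4, both used to recognise Treg cells, while Helios and Ctla4 stayed within 1.5-fold.

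Members were spread widely in the S100 list. After thinning, a Mito-high member held a median of 14 UMIs of this list, with quartiles of 6 and 38, against a median of 5 and quartiles of 3 and 9 in other cells. Cells were split at 10 and 25 UMIs, limits set after the values were seen, so the ranges are not cell types. Within 2 UMIs of the lower limit lay 97 members and of the upper 21. The lowest range held 210 of 561 (37.4%, 33.4 to 41.6) members and the highest 196 of 561 (34.9%, 31 to 39). Of other cells 8959 of 11517 (77.8%, 77 to 78.5) were in the lowest range and 820 of 11517 (7.12%, 6.66 to 7.6) in the highest. The 2 ranges of members had median depths of 18710 and 14046 UMIs before thinning and a median of 5 rule genes each.

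**Figure D3:**
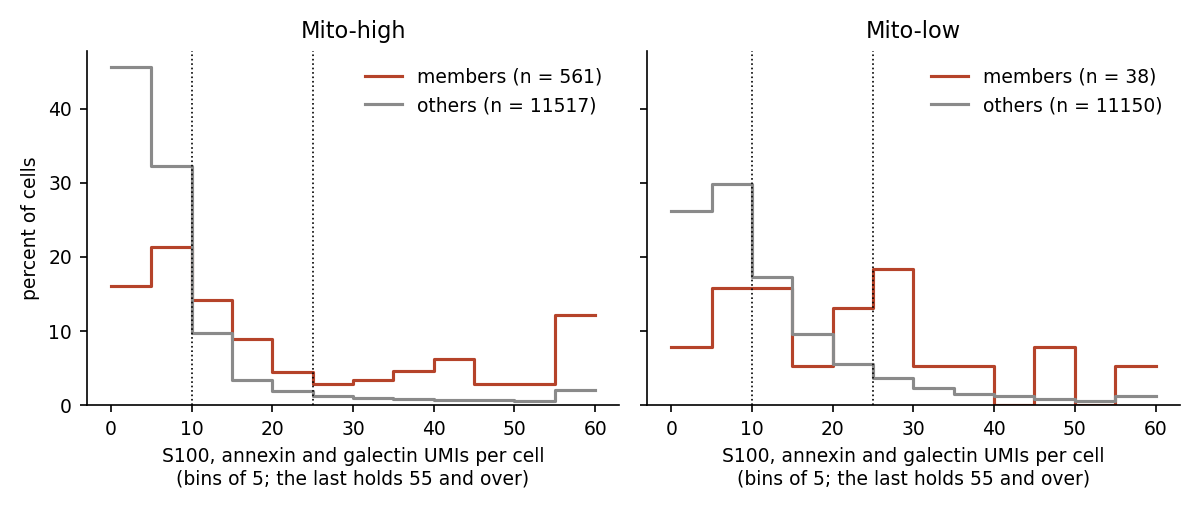
Percent of thinned cells by their UMIs of the S100, annexin and galectin list, for members and other kept cells of Mito-high (left) and Mito-low (right); dotted lines mark 10 and 25 UMIs. Mito-high members spread over both ends, with 37.4% below 10 and 34.9% at 25 or more, whereas 77.8% of the other cells lie below 10.

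Several genes outside the list differed between the ranges within Mito-high members; they were picked after their values were seen. Members of the lowest range carried Ccr7 at 448 CPM (386 to 516), against 56.1 CPM (35.2 to 85) in members of the highest range. Igfbp4 was at 69 CPM (46.2 to 99.2) and 10.2 CPM (2.78 to 26.1), and Nsg2, also of the resting list, at 81 CPM (56.1 to 113) and 2.55 CPM (0.0646 to 14.2). Satb1 was at 300 CPM (249.9 to 357) and 138 CPM (103 to 179.7). Klf2, a resting gene too, went the other way, at 471 CPM (408 to 542) in the lowest and 661 CPM (583 to 746) in the highest range. The effector genes named here were higher in the highest range. Gzmb was at 0 UMIs in members of the lowest range, which allows up to 7.14 CPM, and at 74 CPM (49.5 to 106) in those of the highest. Icos was at 109.5 CPM (80.2 to 146) and 411 CPM (349.7 to 479), Cxcr3 at 14.3 CPM (5.24 to 31.1) and 81.6 CPM (55.8 to 115), Il10 at 9.52 CPM (2.59 to 24.4) and 48.5 CPM (29.2 to 75.7), and Itgae, the integrin chain CD103, at 7.14 CPM (1.47 to 20.9) and 68.9 CPM (45.4 to 100.2). Ccr2 was at 0 UMIs and at 115 CPM (83.7 to 154). Foxp3, at 14.3 CPM (5.24 to 31.1) and 20.4 CPM (8.81 to 40.2), and the rule gene Mki67, at 202 CPM (162 to 250.2) and 242 CPM (196 to 296), had intervals that overlapped.

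**Figure D4:**
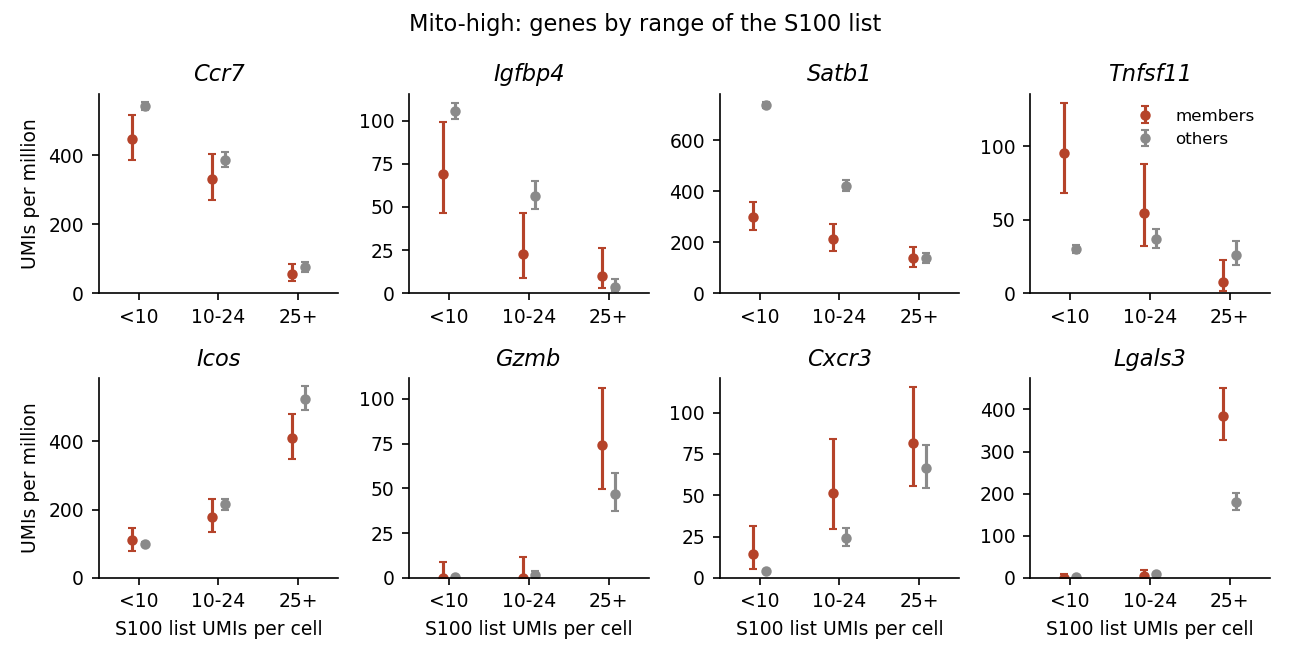
CPM of 8 genes in Mito-high members and other kept cells, in 3 ranges of UMIs of the S100, annexin and galectin list per thinned cell; points are sums over cells and bars exact 95% counting intervals. Ccr7 and Igfbp4 are highest in the lowest range and Icos and Gzmb in the highest, in members as in other cells, while Satb1 is lower in members in the first 2 ranges and not in the highest; Lgals3 belongs to the list that sets the ranges.

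Set against other cells of the same range, the gap in resting genes depended on the range. In other cells of the lowest range Satb1 was at 738 CPM (726 to 751) and Klf2 at 1489.6 CPM (1472 to 1508), above the members of that range. In other cells of the highest range Satb1 was at 137 CPM (119.9 to 156) and Klf2 at 572 CPM (536 to 609.8), so the gap seen over all members was not there. Ccr7 had a log2 ratio of -0.27 (-0.49 to -0.07) in the lowest and -0.38 (-1.16 to 0.23) in the highest range. The resting list median was -0.61 in the lowest and -0.26 in the highest range, and the effector list median 0.28 and -0.40. In the highest range a member held a median of 9 effector UMIs without Lgals1 and Srgn, and another cell 12. Klrg1, a marker of end-stage effectors, was at 56.1 CPM (35.2 to 85) in these members and 146 CPM (128 to 166) in other cells, and Tnfrsf4 at 179 CPM (139 to 226) and 490.2 CPM (457 to 525). Lgals1 stayed higher in members of each range, with log2 ratios of 1.14 (0.87 to 1.37), 0.92 (0.75 to 1.07) and 0.72 (0.63 to 0.81), though it is part of the list that made them. S100a4 did not, at -0.51 (-0.62 to -0.41) in the highest range. Tnfsf11 (RANKL), a cytokine of the TNF family, was at 95.2 CPM (68 to 129.7) in members of the lowest range and 30 CPM (27.5 to 32.6) in other cells, and Il2ra at 136 CPM (103 to 176) and 239 CPM (232 to 246).

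Resting and effector UMIs were also counted cell by cell. A thinned Mito-high member carried a median of 6 resting UMIs, with quartiles of 4 and 10, and another cell 14, with quartiles of 9 and 20. For effector UMIs the medians were 12 and 9, and without Lgals1 and Srgn 7 and 7. Both kinds were found in nearly every cell, 555 of 561 members (98.9%) and 99.5% of other cells, so finding both says nothing particular to members. More effector than resting UMIs were held by 73.4% (69.6 to 77.1) of members and 34.0% (33.1 to 34.9) of other cells, and without Lgals1 and Srgn by 52.6% (48.4 to 56.8) and 25.5% (24.7 to 26.3). The resting medians differed between members and other cells, and the effector medians without Lgals1 and Srgn were alike.

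Levels were followed from cells with 0 rule genes to cells with 6. Resting UMIs went from 7767 CPM (7728 to 7807) with 0 rule genes to 5992 CPM (5905 to 6079) with 1, 4457 CPM (4275 to 4644) with 2 and 3961 CPM (3706 to 4228) with 3, and lay between 3571 and 3839.5 CPM with 4 to 6. The S100 list was at 3970.2 CPM (3942 to 3998), 9689 CPM (9420.2 to 9964), 13228 CPM (12760.1 to 13709) and 11220.2 CPM (10924 to 11522) with 0, 2, 3 and 6. Cells with 2 rule genes, just outside the rule, thus already differed from those with 0 in both lists, as they did in depth. Effector genes without Lgals1 and Srgn were highest with 2, at 5047 CPM (4854 to 5246), and at 3570 CPM (3404 to 3742) with 6. Treg identity genes were at 4232 CPM (3969.6 to 4508) with 3 and 3290.1 CPM (3131 to 3455) with 6. Histone UMIs were concentrated at the top, with 346 CPM (274 to 432), 965 CPM (841 to 1102) and 2663 CPM (2519 to 2812) with 3, 5 and 6.

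**Figure D5:**
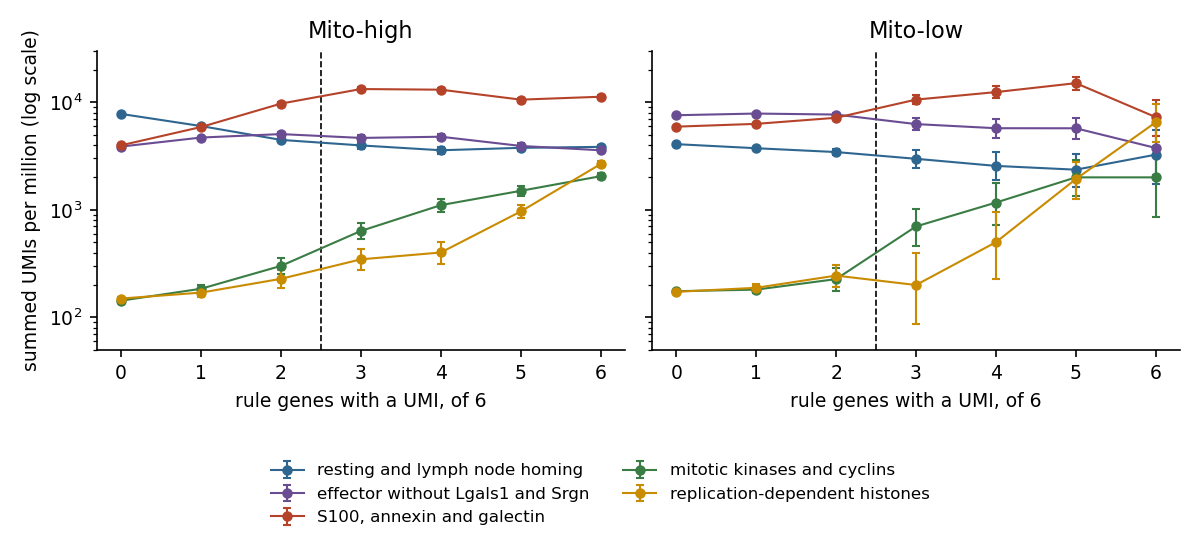
Summed CPM (log scale) of 5 gene lists in thinned cells with 0 to 6 rule genes, for Mito-high (left) and Mito-low (right), with exact 95% Poisson intervals; members lie right of the dashed line. In Mito-high the resting list goes from 7767 to 3839.5 CPM while histones go from 149.8 to 2663 CPM.

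Among the 15 lowest ratios in Mito-high were genes of the interferon and early stress responses. Jun, an immediate early transcription factor, had 79 UMIs and 70.4 CPM (55.7 to 87.8) in members and 6834 UMIs and 297 CPM (289.7 to 304) in other cells. Tcp11l2 had 19.6 CPM (12.3 to 29.7) against 109.9 CPM (106 to 114), Pik3ip1, an inhibitor of PI3 kinase signalling, 6.24 CPM (2.51 to 12.9) against 36.3 CPM (33.9 to 38.8), and Kdm5b, a histone demethylase, 16 CPM (9.51 to 25.4) against 74.7 CPM (71.2 to 78.3). The interferon genes Ifit1 and Irf7 were at 4.46 CPM (1.45 to 10.4) and 6.24 CPM (2.51 to 12.9) against 21.2 CPM (19.3 to 23.2) and 26.1 CPM (24 to 28.3), and 3 of 10 tested genes of that list were lower and 0 higher. Of dissociation and heat stress genes 9 of 15 were lower and 2, the chaperones Hspa8 and Hsph1, higher. Of genes induced by the T cell receptor 5 of 14 were lower and 0 higher, Nr4a1 at 179 CPM (155 to 206) against 404 CPM (396 to 413). The nuclear RNA Malat1 was at 3583 CPM (3473 to 3695) in members and 11089 CPM (11046 to 11132) in other cells, so a sign of RNA quality, like depth, moved with membership; its part in the ratios was not tested.

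The 38 Mito-low members gave 76000 UMIs, so that 1 UMI was worth 13.2 CPM, and genes were compared at 200 CPM or more, a floor chosen after the data were seen. Of 871 such genes 203 (23.3%) were higher in members and 133 (15.3%) lower; 144 of them passed the floor only through members, and of the other 727 genes 92 (12.7%) were higher. List counts are of the latter genes. At 20 CPM or more, where single UMIs decide, 2675 of 6547 (40.9%) were higher and 886 (13.5%) lower, or 1747 and 1529 with the median ratio set to 0, and 1995 and 1304 with TMM, which lowered all ratios by 0.26. Among the 5 highest ratios at 20 CPM or more was Stmn1 (stathmin, which loosens microtubules), with 51 UMIs and 671 CPM (499.6 to 882) in members against 244 UMIs and 10.9 CPM (9.61 to 12.4). The mitotic ubiquitin enzyme Ube2c had 15 UMIs and 197 CPM (110.5 to 326) against 40 UMIs and 1.79 CPM (1.28 to 2.44), and the kinetochore gene Cenpf 12 UMIs and 158 CPM (81.6 to 276) against 7 UMIs and 0.314 CPM (0.126 to 0.647). Hmgb2 was at 3303 CPM (2907 to 3737) against 571 CPM (561 to 581), and 5 of 5 chromatin genes were higher, with 3 more that passed only through members. Of the 5 lowest ratios at that floor, Gm36975, Znrf1, Sp4 and Dennd5a had 0 UMIs in members, where 3 UMIs make 39.5 CPM, and Ell2 had 1, with a log2 ratio of -2.96 (-9.27 to -1.49).

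Mito-low members also carried fewer resting transcripts, and more of their effector genes were lower than higher. Of 7 resting genes at 200 CPM 4 were lower and 0 higher: Klf2, at 237 CPM (140.4 to 374) against 622 CPM (612 to 632), Bach2, Il7r and Foxp1. The list summed to 2776 CPM in members and 4011 CPM in other cells. At 20 CPM or more 9 of 21 resting genes were lower and 1 higher, with a median log2 ratio of -0.34. Over the alternatives this median ranged from -0.70 to 0.50, so its sign was not stable. Of 32 effector genes at 20 CPM or more in other cells 12 were lower and 5 higher, with a median of -0.19. Of all 5617 genes at that floor 886 (15.8%) were lower and 1745 (31.1%) higher. The effector median ranged from -0.53 to 0.50 over the alternatives. Of 13 effector genes at 200 CPM 2 were higher and 5 lower, among them Lgals1, higher at 1632 CPM (1357 to 1945) against 377 CPM (368 to 385), and Tnfrsf4, lower at 355 CPM (234 to 517) against 776 CPM (765 to 788). Gzmb, below that floor in both sums, had 14 UMIs and 184 CPM (101 to 309) in members and 433 UMIs and 19.4 CPM (17.6 to 21.3) in other cells. The S100 list had 6 of 9 genes higher and 0 lower, with S100a6 at 2092 CPM (1779.5 to 2444) against 591 CPM (581 to 601). Of nuclear respiratory genes 10 of 15 were higher, and of dissociation and heat stress genes 8 of 11 were lower. Ifi27l2a, an interferon-induced gene, had 4579 CPM (4110.4 to 5086) in Mito-low members and 1963 CPM (1944 to 1981) in other cells, against 1894 CPM (1814 to 1976) and 1733 CPM (1716 to 1749.6) in Mito-high. Malat1 was again lower, at 6368 CPM (5814 to 6962) against 18719 CPM (18662 to 18776). A thinned Mito-low member held a median of 4 resting and 18.5 effector UMIs, and another cell 7 and 19. Without Lgals1 and Srgn the effector medians were 11.5 in members and 14 in other cells.

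Members of the 2 libraries were last set against each other at 200 CPM or more in either sum. A gene under the floor in 1 library thus had to be at a higher level in the other, though not by 1.5-fold, and the counts below hold such genes. Of those named, Ccr7 passed 200 CPM only in Mito-high members, and Maf and Ccl5 only in Mito-low members. Of 833 genes 77 (9.24%) were higher in Mito-high members and 180 (21.6%) higher in Mito-low members, and at 20 CPM or more 811 of 6493 (12.5%) and 2791 (43.0%). With the median ratio set to 0 the latter counts were 1545 and 1682, and with TMM, which raised all ratios by 0.34, 1401 and 1883. Of 10 resting genes 5 were higher in Mito-high members, Ccr7 at 279 CPM (249 to 312) against 78.9 CPM (29 to 172), and 1, Il7r, was higher in Mito-low members. Of 10 effector genes 0 were higher in Mito-high members and 6 in Mito-low members, Maf at 105 CPM (87.1 to 126) against 461 CPM (321 to 640.5). Ccl5, a chemokine of effector cells, had 15.2 CPM (8.83 to 24.3) against 329 CPM (213 to 486), a log2 ratio of -4.41 (-5.42 to -3.49), and Gzmb 25.8 CPM (17.3 to 37.1) against 184 CPM (101 to 309). Other kept cells differed in the same direction: their Ccl5 was 25.8 CPM for Mito-high against 367 for Mito-low, and their Ccr7 486 against 123. The S100 list summed to 11788 and 11632 CPM in the members of the 2 libraries, with 1 gene higher and 2 lower of 10. The origin licensing list summed to 1389 CPM in Mito-high members against 526 in Mito-low members. In members with 3 rule genes it was at 662 CPM (561 to 777) against 300 CPM (155 to 524). With 6 rule genes it was at 1819 CPM (1701 to 1943) against 1750 CPM (704 to 3606), the latter from 2 cells. Among the 8 highest ratios at 20 CPM or more, H2afx, a histone variant of DNA repair, had 226 CPM (199 to 256) against 26.3 CPM (3.19 to 95.1). Ddx10, Gtpbp4 and Gar1, of ribosome assembly, also among them, had 95, 90 and 88 UMIs against 0. With 3 UMIs in place of the 0 they were 2.14-fold, 2.03-fold and 1.99-fold higher, leaving out the counting error of the larger count. Rule genes per member differed between the libraries, a median of 5 in each S100 range of Mito-high and 3 to 4 in Mito-low, and so did depth and Gm42418, a ribosomal RNA marker, at 1149 CPM (1087 to 1213) against 5592 CPM (5073 to 6149.9); their part in these differences was not tested.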

How the data were processed

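Single-cell RNA was measured in 1 Mito-high and 1 Mito-low library of sorted mouse Treg cells. The authors deposited a matrix of unnormalized UMI counts for each library, with 32285 features, written by Cell Ranger 7.1.0 per the file headers. Build mm10 and Seurat 4.3.0.1 appear in the submitters' processing notes. The counts were used as deposited, and groups were taken from the labels.

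Cells with at least 500 genes and at most 20% mt UMIs were kept. Kept cells were thinned without replacement to 2000 UMIs, and shallower cells (139 in Mito-high and 491 in Mito-low, 0 of them members) were left out of thinned values. UMIs were summed over members and over other kept cells and given as CPM. Log2 ratios had a pseudocount of 1 UMI, genes needed 20 CPM in either sum, with list counts also given over genes at 20 CPM in other cells, and 1.5-fold was the limit for a call. Level intervals are exact Poisson, shares Clopper-Pearson, and ratios conditional binomial, all 95%; a count of 0 allows 3 counts. No test across samples is possible with 1 library per group. The ratio script was tested on simulated data. Scrublet (scanpy 1.11.5, expected rate 0.08) marked 0 cells, under 0.5%, so it was taken not to have worked and no cell was removed as a doublet.

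Named genes were, among genes with at least 10 UMIs in the larger sum, the 15 highest and 15 lowest ratios in Mito-high, the 5 highest and 5 lowest in Mito-low, the 8 highest and 8 lowest between members of the libraries, up to 4 per list with the largest absolute Mito-high ratio, and a fixed set of Treg, homing and effector genes. Rule, mt-, ribosomal protein, T cell receptor and immunoglobulin genes were left out of the first 3 choices. Genes outside this rule (Gart, Ccnb1, Ccnd2, Ccnd3, Cdkn1a, Cdkn1b, Klf4, Slc2a1, Slc2a3, Hspa8, Hsph1, Tnfrsf18, Capg, Bach2, Foxp1, Maf, Ifi27l2a, Tnfsf11, Cd8a, Cd8b1, Runx3, Cd79a and Cd79b) were chosen after their values were seen. The members, lists and tests were chosen with earlier results of these data known, and 8 alternatives were added to the 17 planned ones after seeing the data. Promoter windows are from RefSeq, GRCm38.p6. Python 3.11.15, numpy 2.4.6, scipy 1.17.1, pandas 2.3.3, R 4.3.3 and edgeR 4.0.16 (TMM factors only) were used.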

Additional observations from a re-analysis of the deposited data

How the results depend on the processing

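With 1 library per sort gate there is no replicate check, and Mito-low ratios rest on 38 cells. Members were deeper than other cells in both libraries. No paired analysis was possible because each group has 1 library. Of the values recomputed under the alternatives, 3820 stayed within their spread, 567 moved by more, and 27 that were at least 1.5-fold as reported changed sign; counting smaller values too, 167 log2 values changed sign; the cause was not tested except where fewer genes or cells entered by construction (floors, S100 ranges, a Foxp3 UMI). The Mito-high share of members was 6.67% with 2 rule genes enough, 3.66% with 4 rule genes needed, 1.9% with the rule applied after thinning, 3.29% among cells of at most 20000 UMIs and 15.5% among cells of at least 8000 UMIs. The Mito-low share of members was 1.53% with 2 rule genes enough, 0.154% with 4 rule genes needed, 0.0894% with the rule applied after thinning and 2.09% among cells of at least 8000 UMIs.

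Between members and other cells of Mito-high the 1368 higher genes became 754 at a floor of 50 CPM, 10010 with no floor other than 1 UMI, 184 at a floor of 200 CPM and 815 over genes at 20 CPM or more in other cells. Between members and other cells of Mito-high the 773 lower genes became 461 at a floor of 50 CPM, 1866 with no floor other than 1 UMI and 130 at a floor of 200 CPM. Between members and other cells of Mito-low the 2675 higher genes became 1215 without thinning, 684 with 2 rule genes enough, 4213 with the rule applied after thinning, 5137 with a pseudocount of 5, 1401 at a floor of 50 CPM, 14592 with no floor other than 1 UMI, 1747 with the median ratio set to 0, 203 at a floor of 200 CPM, 4563 among cells with a Foxp3 UMI, 4432 among cells with fewer than 10 S100 list UMIs and 1745 over genes at 20 CPM or more in other cells. Between members and other cells of Mito-low the 886 lower genes became 318 with exact expected thinned counts, 329 with 2 rule genes enough, 424 with the rule applied after thinning, 61 with a pseudocount of 5, 504 at a floor of 50 CPM, 1529 with the median ratio set to 0, 133 at a floor of 200 CPM, 322 among cells with a Foxp3 UMI and 299 among cells with fewer than 10 S100 list UMIs. Between members of the libraries, Mito-high over Mito-low, the 811 higher genes became 247 with exact expected thinned counts, 508 with 4 rule genes needed, 359 with the rule applied after thinning, 43 with a pseudocount of 5, 421 at a floor of 50 CPM, 1545 with the median ratio set to 0, 1401 with TMM, 77 at a floor of 200 CPM, 317 among cells with a Foxp3 UMI and 404 among cells with fewer than 10 S100 list UMIs. Between members of the libraries, Mito-high over Mito-low, the 2791 lower genes became 1302 without thinning, 1551 with 2 rule genes enough, 5071 with a pseudocount of 5, 1467 at a floor of 50 CPM, 8313 with no floor other than 1 UMI, 1682 with the median ratio set to 0, 180 at a floor of 200 CPM, 4282 among cells with a Foxp3 UMI and 4349 among cells with fewer than 10 S100 list UMIs.

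In Mito-high the median of the tissue-directing receptors and integrins list, 0.62 as reported, was -8.2e-05 without thinning, -0.12 at a floor of 50 CPM, -0.38 among cells with 25 or more S100 list UMIs and -0.12 over genes at 20 CPM or more in other cells. In Mito-high the median of the resting list, -0.88 as reported, was -0.57 among cells of at least 8000 UMIs, -0.60 among cells with a Foxp3 UMI, -0.61 among cells with fewer than 10 S100 list UMIs and -0.26 among cells with 25 or more S100 list UMIs. In Mito-high the median of the effector list, 0.40 as reported, was -0.0954 among cells of at least 8000 UMIs, -0.048 at a floor of 50 CPM, -0.15 at a floor of 200 CPM, -0.40 among cells with 25 or more S100 list UMIs and 0.13 over genes at 20 CPM or more in other cells. In Mito-low the median of the Treg identity list, -0.60 as reported, was 0.0462 with a pseudocount of 5. In Mito-low the median of the dissociation and heat stress list, -0.87 as reported, was 0.12 among cells with fewer than 10 S100 list UMIs. In the comparison between members of the libraries the median of the effector list, -0.62 as reported, was -1.70 among cells with fewer than 10 S100 list UMIs. In Mito-high the median of the S100 list ranged from 0.14 to 1.66 over the alternatives. The sign changes of genes that follow are limited to log2 ratios at least 1.5-fold as reported. Smaller ratios are left out, such as that of S1pr1 in Mito-high, which ranged from -1.28 to 0.21. Log2 ratios that changed sign without thinning were Itgae (-8.2e-05). Log2 ratios that changed sign among cells of at least 8000 UMIs were Klrg1 (-0.00672). Log2 ratios that changed sign among cells with a Foxp3 UMI were Foxp1 (0.60, Mito-low). Log2 ratios that changed sign among cells with fewer than 10 S100 list UMIs were Itgae (-0.29), Ccl5 (0.14), Cdkn1a (-0.38), Foxp1 (0.30, Mito-low) and Ifi27l2a (-0.91, Mito-low). Log2 ratios that changed sign among cells with 25 or more S100 list UMIs were Icos (-0.35), Bcl2 (0.41), Il10 (-0.39), S100a4 (-0.51), S100a6 (-0.24), Klrg1 (-1.32), Klf2 (0.21), Gpr83 (0.74), Ccr2 (-0.72), Itgae (-0.40), Igfbp4 (1.58), Batf (-0.0161) and Satb1 (0.026).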
